A study of Mus musculus with 36 samples.

Results

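Livers labelled knockout for Vps15 were compared after a 24 h fast and in the fed state, which asks how the liver transcriptome responds to fasting when this gene has been targeted. Of the 36 samples of the series, 6 hold this comparison, 3 from fasted knockout livers and 3 from fed knockout livers, and they were chosen by their genotype and treatment labels alone. The knockout genotype is labelled Ttr CRE+, Vps15f/f, that is, floxed Vps15 alleles with a Cre recombinase named for Ttr, the transthyretin gene that hepatocytes transcribe strongly. Fasted and fed livers labelled WT, 3 of each, with no allele named, serve as the comparison, and the other 24 samples, from cultured fibroblasts, were not used. All 12 livers came from male mice aged 4 weeks and killed at zeitgeber time 14, 2 h after lights off, and all were frozen whole and powdered before RNA was taken. The labelled cell type is hepatocyte, but the material was therefore whole liver. Messenger RNA was selected by its poly(A) tail and sequenced, and the values are raw counts per gene.

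Vps15, encoded by Pik3r4, is the regulatory partner of Vps34, the catalytic subunit of class 3 phosphoinositide 3-kinase. Together they make the lipid phosphatidylinositol 3-phosphate on endosomes and autophagosomes, and so serve endocytic sorting and autophagy. In a fasted liver, falling insulin and rising glucagon, glucocorticoid and fatty acid signals switch on fatty acid oxidation and ketone production through the receptor PPARα, glucose production through CREB, FOXO and PGC-1α, and the breakdown of amino acids with disposal of their nitrogen as urea. Lipogenesis and sterol synthesis, driven by the SREBP factors, are switched off.

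Pik3r4 (ENSMUSG00000032571, chromosome 9, 105642978 to 105687657, plus strand, GRCm38) stood at 21.1, 24.0 and 18.2 CPM (counts scaled to a common library size) in fasted knockout libraries a, b and c, against 24.6, 22.2 and 25.3 CPM in fed knockout libraries. Its groups overlapped, and it averaged 22.3 ± 2.07 CPM in fasted and 21.2 ± 3.14 CPM in fed wild-type livers (SD, n = 3). Floxed alleles can lose an exon and still give transcript, so this level leaves the genotype labels unchecked. Library totals were 9110836 to 12870944 counts over the 12 livers, and 20.5 to 24.8% of counts fell on NONCODE features, a catalogue of non-coding transcripts. All 19 hepatocyte markers listed were detected, and their summed level was 22027 to 25161 CPM in fasted knockout and 21157 to 24492 CPM in fed knockout livers, against 57002 to 59771 CPM in fasted wild-type and 46686 to 49351 CPM in fed wild-type livers. In whole tissue, fewer cells of a type and less RNA per cell cannot be told apart.

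Few transcripts passed the test for a fasting response in knockout livers. Of 23875 features tested, 362 (1.52%) passed edgeR's quasi-likelihood test with an adjusted p under 0.05, and 4205 had an unadjusted p under 0.05. In fasted knockout livers 199 (0.834%) were higher and 163 (0.683%) were lower. Ensembl genes gave 123 of the rises and 141 of the falls, and NONCODE features gave 76 and 22. With library sizes as the only scaling the split was 165 higher and 302 lower. The same test between fasted and fed wild-type livers called 6282 features (26.3%), 2981 (12.5%) higher and 3301 (13.8%) lower, and 1785 higher and 5202 lower with library sizes alone. Nothing in the labels says more of how the 3 animals of a group were kept, so these p-values measure the spread between these samples, which may in part be technical. The difference between the 2 fasting responses, tested as an interaction, passed 0.05 for 2873 features (12%), with 1512 (6.33%) higher and 1361 (5.7%) lower in knockout than in wild-type livers, and with 2244 higher and 1014 lower with library sizes alone. Among the 2981 features that rose in fasted wild-type livers the median log2 fold change was 0.08 in knockout livers, against 0.75 in wild-type livers. Among the 3301 that fell it was -0.19 in knockout livers, against -1.10 in wild-type livers. Both sets were chosen by their wild-type values, which by itself makes the wild-type medians the larger ones, so these medians are a description. Over all features the median change was -0.02 in knockout and -0.01 in wild-type livers.

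Part of the knockout calls went the same way in wild-type livers. Of the 199 that rose in fasted knockout livers, 74 also rose and 16 fell in fasted wild-type livers. Of the 163 that fell in fasted knockout livers, 75 also fell and 21 rose in fasted wild-type livers. Those shared features made up 2.48% of the wild-type rises and 2.27% of the wild-type falls. Across all tested features, which are not independent replicates, Pearson's r between the 2 sets of log2 fold changes was 0.18.

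**Figure D1:**
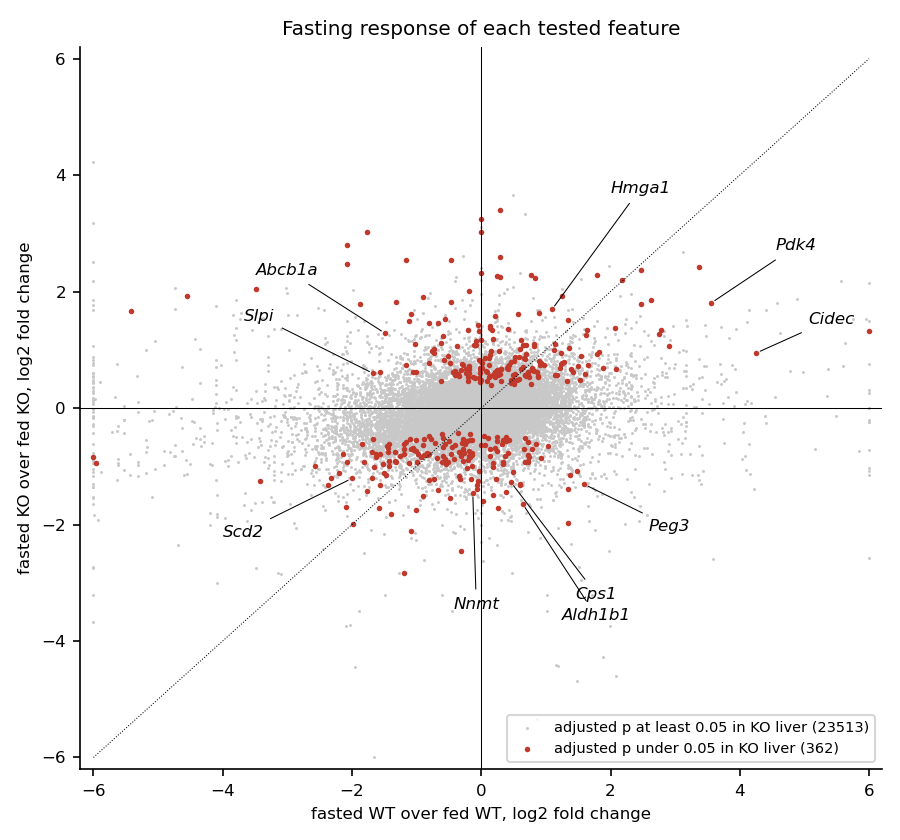
Log2 fold change of each tested feature on fasting in knockout livers (vertical axis, fasted over fed) against wild-type livers (horizontal axis); red points are the 362 features past an adjusted p of 0.05 in knockout livers and the dotted line marks equal changes. The 77 features beyond a log2 fold change of 6 are drawn at the edge. The cloud is wider along the wild-type axis than along the knockout axis, and red points lie in all 4 quadrants.

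The 3 fasted knockout libraries differed in their distance from the fed ones. On the first principal component of the 6 knockout libraries, with 39.4% of the variance, fasted libraries a and c stood at 33.6 and 55.0, fasted library b at -0.29, and the fed libraries at -37.2, -19.8 and -31.2. The root-mean-square log2 distance of fasted library b was 0.51, 0.48 and 0.50 from fed libraries a, b and c, against 0.49 from fasted library a and 0.55 from fasted library c. Fasted libraries a and c lay 0.48 from each other and 0.56 to 0.66 from the fed libraries. The fed libraries lay 0.45 to 0.49 from each other, so fasted library b was no farther from a than such replicates were. Over the 362 called features fasted library b was the fasted library closest to the fed mean in 279 (77.1%), a description, since these features were chosen in the same libraries. Its share of mitochondrial counts (2.22%) and of NONCODE counts (22.4%) lay within 2.01 to 2.65% and 20.5 to 24.8%, the ranges of the knockout libraries.

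The number of calls depended on single libraries. It was 7 without fasted library a, 7 without c and 1330 without b, and it was 57, 441 and 45 without fed library a, b and c. A fit of the 6 knockout libraries alone called 33 features, 26 of them among the 362, and 3922 passed an unadjusted p of 0.05 in it. Leaving out wild-type libraries, which share in the estimate of spread, gave 256 to 338 calls, with 89 and 93 falls, against 163, without fasted wild-type library b or c. In 5264 of 23875 features (22%) the 3 fasted and 3 fed knockout libraries did not overlap. Each group of genes below therefore comes with the number of its calls that held in these smaller fits. The counts of calls are to be read against all features, of which 0.834% rose and 0.683% fell in knockout livers. In wild-type livers 12.5% of all features rose and 13.8% fell. Counts of interactions are to be read against 6.33% of all features with a positive one and 5.7% with a negative one past 0.05. Short lists with no call lie near the knockout share.

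**Figure D2:**
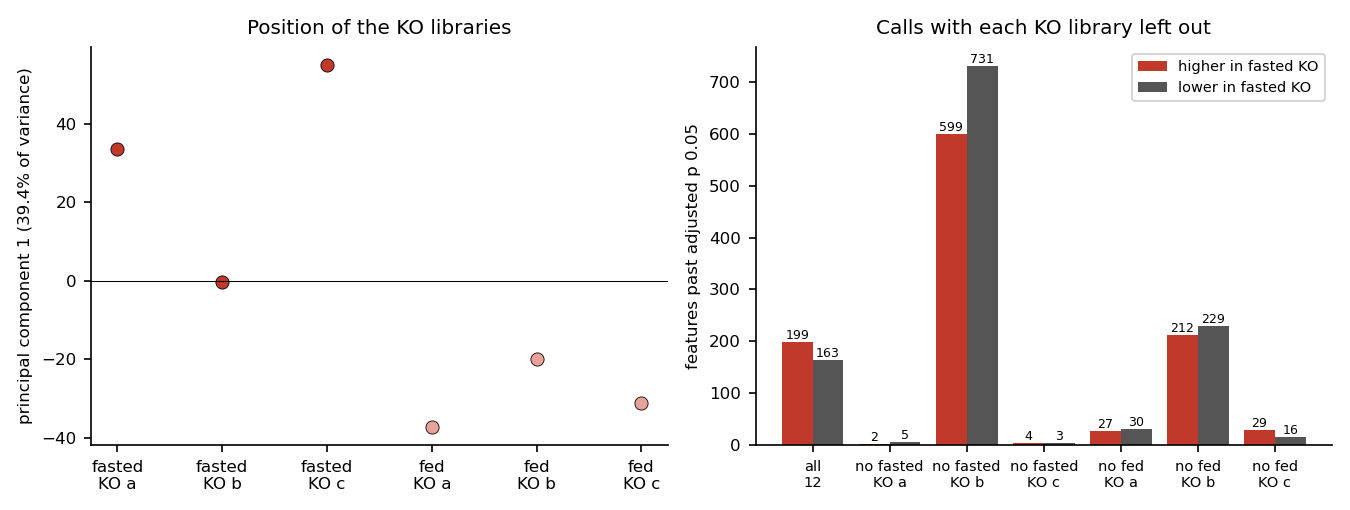
Left, the position of each knockout library on the first principal component (39.4% of variance). Right, the number of features past an adjusted p of 0.05 (red, higher in fasted knockout; grey, lower) with all 12 liver libraries and with each knockout library left out: 599 and 731 without fasted library b, and at most 5 in either direction without fasted library a or c.

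Fewer fatty acid oxidation and ketogenesis genes rose in knockout than in wild-type livers. Of 53 members tested, 4 rose and 0 fell in fasted knockout livers, with a median log2 fold change of 0.17. These calls were 7.55% of the members, against 1.52% of all features. In fasted wild-type livers 47 members rose and 1 fell, with a median of 1.06. The interaction was past 0.05 for 34 members, each with the lower response in knockout livers. The 4 that rose were Pdk4, Acaa1b, Creb3l3 and Pex11a.

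Pdk4, the pyruvate dehydrogenase kinase that spares pyruvate when fat is burned, had 168, 161 and 167 CPM in fasted knockout libraries a, b and c, against 29.7, 41.0 and 71.1 CPM in fed knockout libraries. The fasted libraries agreed closely and lay above every fed one, with a log2 fold change of 1.81 ± 0.31 (SE; edgeR adjusted p = 0.0258). In wild-type livers Pdk4 averaged 62.4 ± 17.1 CPM fasted and 5.29 ± 1.49 CPM fed, a rise of 3.56, and every fed knockout library lay above every fed wild-type library. The interaction of -1.75 (adjusted p = 0.0378) passed in 4 of 12 fits with a library left out, at -2.00 to -1.33.

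Acaa1b, a peroxisomal thiolase with a close paralog whose reads may be shared, had 277, 414 and 326 CPM in fasted knockout libraries, against 133, 174 and 191 CPM in fed knockout libraries. The groups did not overlap, and the change was 1.03 ± 0.18 (adjusted p = 0.0182), against 1.35 in wild-type livers. Creb3l3, a membrane-bound liver transcription factor of the fasting response, had 460, 420 and 484 CPM fasted against 212, 317 and 283 CPM fed in knockout livers. It rose by 0.75 ± 0.14 there and by 1.24 in wild-type livers, and its interaction did not pass (adjusted p = 0.111). Pex11a, which takes part in peroxisome division, rose by 0.58 ± 0.13 (adjusted p = 0.0383).

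Cpt1a, Cyp4a14, Angptl4 and Fgf21, targets of PPARα, did not pass in knockout livers. Cpt1a, which admits fatty acids to mitochondria, had 315, 344 and 356 CPM in fasted knockout libraries, against 401, 309 and 430 CPM in fed knockout libraries, and the groups overlapped. In wild-type livers it averaged 1028 ± 55.4 CPM fasted and 369 ± 81.0 CPM fed, and the responses differed by -1.64 (interaction adjusted p = 0.000133).

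Cyp4a14, a fatty acid omega-hydroxylase of a family of close paralogs, had 120, 360 and 146 CPM in fasted knockout libraries, against 99.7, 24.9 and 133 CPM in fed knockout libraries. Library b was the highest fasted library and fed library b the lowest, and the groups overlapped (adjusted p = 0.306). Wild-type livers held 5096 ± 96.6 CPM fasted and 206 ± 10.6 CPM fed, and the interaction of -3.34 passed in 2 of 12 fits with a library left out, at -4.00 to -2.88. Angptl4, a secreted inhibitor of lipoprotein lipase, averaged 135 ± 20.7 CPM fasted and 90.6 ± 15.1 CPM fed in knockout livers (adjusted p = 0.0979), while it rose by 2.79 in wild-type livers (interaction -2.22, adjusted p = 4.52e-05). The hepatic fasting hormone Fgf21 had 39.1, 20.6 and 45.5 CPM in fasted knockout libraries, against 11.7, 16.0 and 30.7 CPM in fed knockout libraries (adjusted p = 0.41). Its interaction, with wild-type means of 54.5 ± 4.91 CPM fasted and 5.26 ± 3.45 CPM fed, had an adjusted p of 0.0599. Ppara itself averaged 56.5 ± 14.8 CPM fasted and 50.1 ± 5.05 CPM fed in knockout livers (adjusted p = 0.652).

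The calls of this list were not stable. Without fasted library a (log2 fold changes of 0.68 to 1.79 for the 4 genes), without fasted library c (0.56 to 1.80) or without fed library a (0.49 to 1.56), 0 of the 4 passed, nor did any in the fit of the 6 knockout libraries. Without fasted library b Pex11a was lost (0.48), without fed library b Pdk4 was lost, and without fed library c Creb3l3 and Pex11a were lost.

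**Figure D3:**
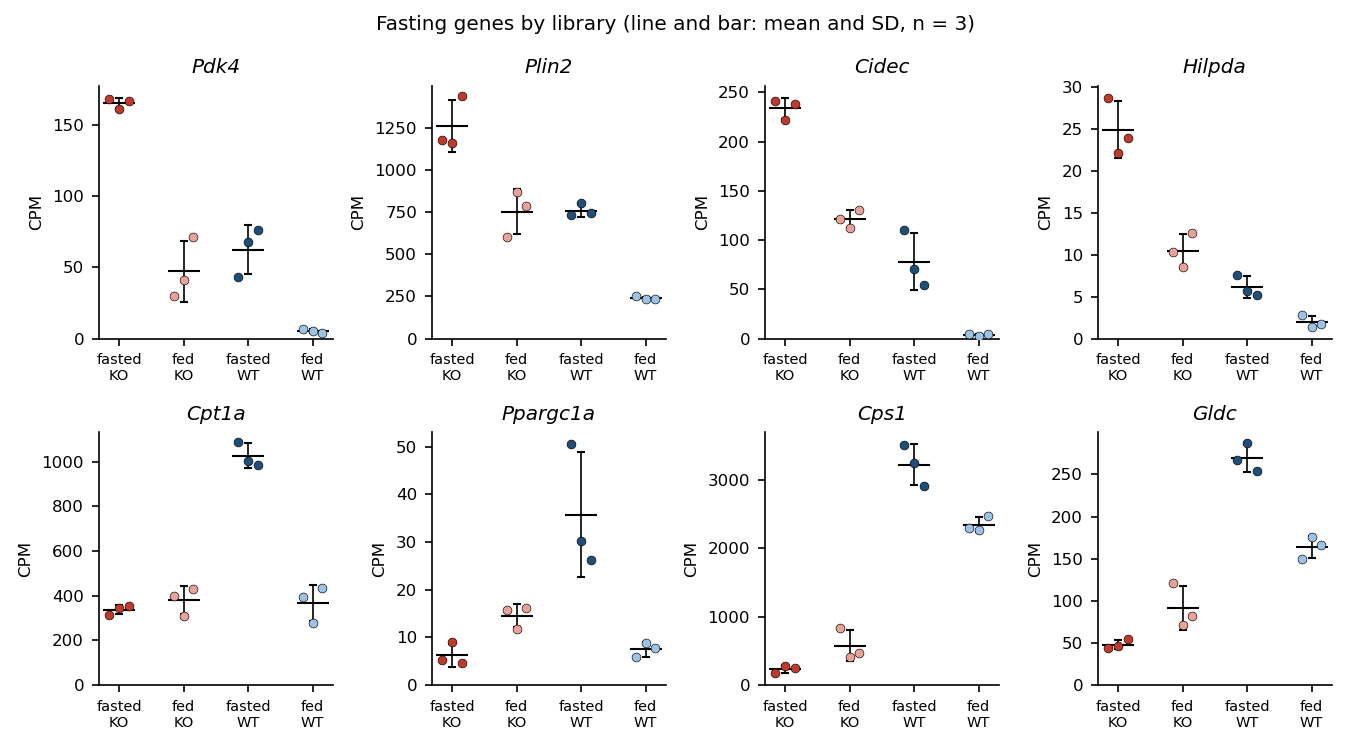
CPM of 8 genes of the fasting response in each liver library (points), with the mean and SD of the 3 libraries of a group (line and bar); groups run fasted knockout, fed knockout, fasted wild type, fed wild type. Pdk4, Plin2, Cidec and Hilpda are higher in every fasted than in every fed knockout library, Cpt1a overlaps, and Ppargc1a, Cps1 and Gldc are lower in every fasted than in every fed knockout library.

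Of the lipid droplet genes, Plin2, Hilpda and Cidec rose in fasted livers of both genotypes. Of 24 tested members 4 rose and 0 fell in fasted knockout livers, with a median of 0.26, against 11 rises and 2 falls in wild-type livers with a median of 0.70. These knockout calls were 16.7% of the members, against 1.52% of all features. The interaction was positive past 0.05 for 3 members and negative for 9. Plin2, the main droplet coat protein of hepatocytes, had 1180, 1159 and 1438 CPM in fasted knockout libraries, against 605, 868 and 786 CPM in fed knockout libraries. The groups were separate and the change was 0.74 ± 0.13 (adjusted p = 0.0182), smaller than the 1.65 of wild-type livers (interaction -0.91, adjusted p = 0.00403).

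Hilpda, an inhibitor of adipose triglyceride lipase, had 28.7, 22.1 and 23.9 CPM in fasted knockout libraries, against 10.3, 8.52 and 12.6 CPM in fed knockout libraries. It rose by 1.25 ± 0.19 (adjusted p = 0.0106), and by 1.63 in wild-type livers, where it averaged 6.15 ± 1.27 CPM fasted and 1.98 ± 0.728 CPM fed. The droplet fusion gene Cidec had 241, 222 and 238 CPM in fasted knockout libraries, against 122, 112 and 130 CPM in fed knockout libraries, a change of 0.95 ± 0.19 (adjusted p = 0.0293). In wild-type livers it averaged 78.2 ± 28.5 CPM fasted and 4.07 ± 0.903 CPM fed, so that even fed knockout livers exceeded the fasted wild-type livers, and the rise of 4.26 there was larger than in knockout livers (interaction -3.31, adjusted p = 1.84e-05). Its relative Cidea was scarce, at 2.11, 1.36 and 1.52 CPM in fasted knockout libraries against 0.275, 0.260 and 0.268 CPM in fed ones, and rose by 2.59 ± 0.46 (adjusted p = 0.0182). In wild-type livers Cidea had 1, 3 and 1 counts in the fasted libraries and 1, 1 and 3 in the fed ones, near the floor and with no rise to compare.

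Without fasted library b all 4 droplet genes passed. None passed without fasted library a (0.79 to 2.38) or c (0.64 to 2.65), and Hilpda alone passed without fed library a (the 4 at 0.61 to 2.61) or fed library c (0.77 to 2.59). Without fed library b Cidec was lost, and Plin2 was lost in the fit of the 6 knockout libraries.

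Genes of glucose production gave no rise past the threshold, which lies near the share of all features, of which 0.834% rose in knockout livers. Of 32 members tested 0 rose and 1 fell in fasted knockout livers, with a median of -0.12, while 20 rose and 1 fell in wild-type livers with a median of 0.68, and 15 members had a lower interaction past 0.05. The member that fell was Klf15, a glucocorticoid-responsive activator of gluconeogenic and amino acid catabolic genes, with 40.4, 57.7 and 48.4 CPM in fasted knockout libraries, against 114, 66.2 and 81.1 CPM in fed knockout libraries. All fasted libraries lay below all fed ones (-0.83 ± 0.19, adjusted p = 0.0391), whereas Klf15 rose by 0.73 in fasted wild-type livers (interaction -1.56, adjusted p = 0.00115). The call was lost without fasted library a (-0.71), fasted library c (-0.82), fed library a (-0.59) or fed library c (-0.88), and in the fit of the 6 knockout libraries (-0.83).

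Ppargc1a, which encodes the coactivator PGC-1α, had 5.16, 8.99 and 4.56 CPM in fasted knockout libraries, against 15.6, 11.8 and 16.1 CPM in fed knockout libraries. These groups did not overlap, but the change of -1.21 ± 0.29 missed the threshold (adjusted p = 0.0551). In wild-type livers it rose by 2.25, to 35.7 ± 13.1 CPM fasted against 7.50 ± 1.54 CPM fed, and the responses differed by -3.46 (interaction adjusted p = 0.000166).

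Pck1, the committed enzyme of gluconeogenesis from pyruvate and amino acids, had 302, 571 and 300 CPM in fasted knockout libraries, against 711, 364 and 623 CPM in fed knockout libraries. The groups overlapped through both libraries b (adjusted p = 0.346), while wild-type livers averaged 3444 ± 195 CPM fasted and 1204 ± 177 CPM fed (interaction -2.05, adjusted p = 0.00594). G6pc, which frees glucose from its phosphate, varied over 8.29, 37.9 and 8.74 CPM in fasted knockout libraries, against 94.9, 12.9 and 45.3 CPM in fed knockout libraries (adjusted p = 0.379), with library b the highest fasted and the lowest fed library. Got1, the cytosolic aspartate aminotransferase, averaged 144 ± 43.2 CPM fasted and 324 ± 131 CPM fed in knockout livers (adjusted p = 0.0762), with an interaction of -3.03 (adjusted p = 0.00122). For Slc25a47, a liver mitochondrial carrier, the knockout means were 230 ± 60.4 CPM fasted and 163 ± 21.3 CPM fed (adjusted p = 0.113), against a rise of 1.95 in wild-type livers (interaction -1.45, adjusted p = 0.000558). Igfbp1, an insulin-repressed secreted protein, averaged 947 ± 237 CPM fasted and 597 ± 253 CPM fed in knockout livers, against 534 ± 148 CPM fasted and 35.2 ± 43.4 CPM fed in wild-type livers, and neither the knockout change (adjusted p = 0.725) nor the interaction (adjusted p = 0.11) passed.

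Several genes of amino acid catabolism and the urea cycle fell, while others of the list rose in wild-type livers. Of 55 members tested, 1 rose and 6 fell in fasted knockout livers, 4 of the 55 changes were positive at all, and the median was -0.42. In wild-type livers 16 rose and 3 fell, with a median of 0.46, and the interaction was negative and past 0.05 for 23 members and positive for 0. The 6 that fell were Cps1, Gldc, Slc25a15, Tat, Cbs and Kynu.

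Cps1, carbamoyl phosphate synthetase, the entry to the urea cycle, had 169, 284 and 255 CPM in fasted knockout libraries, against 832, 417 and 466 CPM in fed knockout libraries. Every fasted library was below every fed one, at -1.28 ± 0.24 (adjusted p = 0.025). Wild-type livers held 3226 ± 300 CPM fasted and 2345 ± 109 CPM fed, and the interaction was -1.74 (adjusted p = 0.00462).

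Gldc, of the glycine cleavage system, had 43.9, 46.1 and 54.3 CPM in fasted knockout libraries, against 121, 71.1 and 82.3 CPM in fed knockout libraries. It fell in knockout livers (-0.93 ± 0.16, adjusted p = 0.0182) and rose in wild-type livers (0.72), with an interaction of -1.65 (adjusted p = 0.000166). Tat, the glucocorticoid-induced tyrosine aminotransferase, had 344, 488 and 383 CPM in fasted knockout libraries, against 890, 489 and 752 CPM in fed knockout libraries, and fasted library b nearly met fed library b. It fell by 0.81 in knockout livers (adjusted p = 0.0457) and rose by 0.73 in wild-type livers, with an interaction of -1.54 (adjusted p = 0.00149).

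Slc25a15, the mitochondrial ornithine carrier, averaged 79.3 ± 31.2 CPM fasted and 161 ± 27.5 CPM fed in knockout livers (-1.02 ± 0.22, adjusted p = 0.044). Cbs, which leads homocysteine into cysteine synthesis, averaged 64.5 ± 23.0 CPM fasted and 144 ± 32.7 CPM fed (-1.16 ± 0.25, adjusted p = 0.0468), and Kynu of tryptophan breakdown 24.7 ± 8.79 CPM fasted and 43.6 ± 7.43 CPM fed (-0.82 ± 0.19, adjusted p = 0.0479). The single riser was Sdsl, a serine dehydratase relative, with 48.2, 31.0 and 42.7 CPM in fasted knockout libraries, against 22.0, 22.6 and 26.6 CPM in fed knockout libraries (0.78 ± 0.18, adjusted p = 0.0442). Sdsl also rose in wild-type livers (0.93).

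All 7 calls held without fasted library b (-1.46 to 0.94), and 0 held without fasted library a (-1.08 to 0.63), without fasted library c (-1.33 to 0.74) or in the fit of the 6 knockout libraries. Gldc and Cps1 held without fed library a (the 7 at -0.97 to 0.73), 4 held without fed library b (-1.46 to 0.74), and Gldc alone held without fed library c (-1.40 to 0.86). Each kept its sign in these fits. The urea and amino acid list summed to 4963 to 7802 CPM in fasted knockout and 7947 to 12348 CPM in fed knockout livers, against 39275 to 45614 CPM in fasted wild-type and 28476 to 32199.7 CPM in fed wild-type livers. The hepatocyte marker sums given above overlapped between the knockout groups, and the part of hepatocyte content in the result was not tested.

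Several of these enzymes belong to the periportal zone, the oxygen-rich part of the liver lobule where urea and glucose are made. Of 22 periportal genes 1 rose and 3 fell in fasted knockout livers, with a median of -0.58, against 7 rises and 2 falls in wild-type livers with a median of 0.54, and 10 had a negative interaction. Of 22 pericentral genes 0 rose and 1 fell (median -0.09). The periportal falls were Cps1, Gldc and Aldh1b1, a mitochondrial aldehyde dehydrogenase with 4.58, 6.95 and 5.02 CPM in fasted knockout libraries, against 19.6, 11.8 and 20.7 CPM in fed knockout libraries. Aldh1b1 had the largest fall that the naming rule admits, -1.65 ± 0.34 (adjusted p = 0.0422), with an interaction of -2.29 (adjusted p = 0.00813). The pericentral fall was Ahr, the aryl hydrocarbon receptor (-0.53 ± 0.13, adjusted p = 0.0454). Cyp2e1, a pericentral cytochrome, averaged 649 ± 185 CPM fasted and 442 ± 72.9 CPM fed in knockout livers and did not pass (adjusted p = 0.109). Aldh1b1 held in the fit of the 6 knockout libraries and without fasted library b or fed library b. It was lost without fasted library a (-1.53), fasted library c (-1.58), fed library a (-1.55) or fed library c (-1.50), and Ahr held without fasted library b and was lost in the other 5 such fits.

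Most genes of cholesterol synthesis fell in fasted wild-type livers, whereas 0 passed in knockout livers. Of all features 13.8% fell in wild-type livers and 1.52% passed in knockout livers, so 0 in a list of this size lies near the knockout share. Of 37 genes of lipogenesis and glycolysis 0 rose and 2 fell in fasted knockout livers (median -0.14), and of 28 genes of cholesterol synthesis 0 rose and 0 fell (median -0.09). In wild-type livers 9 lipogenic and glycolytic genes rose and 14 fell (median -0.13), with 11 positive and 7 negative interactions. There 23 of the 28 sterol genes fell and 2 rose (median -0.96), and 16 had a positive interaction. Srebf1, the transcription factor that drives lipogenesis, had 80.7, 72.5 and 79.7 CPM in fasted knockout libraries, against 107, 84.3 and 88.0 CPM in fed knockout libraries (adjusted p = 0.307). Its wild-type means were 54.1 ± 9.40 CPM fasted and 602 ± 21.2 CPM fed, and the interaction was 3.21 (adjusted p = 3.31e-08), so that the knockout libraries lay far below the fed wild-type level in both states. Fasn, fatty acid synthase, likewise averaged 252 ± 37.8 CPM fasted and 323 ± 29.1 CPM fed in knockout livers (adjusted p = 0.246), against 285 ± 45.9 CPM fasted and 1374 ± 273 CPM fed in wild-type livers (interaction 1.91, adjusted p = 4.82e-05).

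The 2 falls were Scd2 and Pfkfb1. Scd2, a stearoyl-CoA desaturase with close paralogs, had 29.4, 29.4 and 29.3 CPM in fasted knockout libraries, against 71.4, 60.3 and 72.1 CPM in fed knockout libraries. The fasted libraries were nearly equal and the fall of 1.21 ± 0.16 (adjusted p = 0.00398) passed without each knockout library in turn. In wild-type livers it fell by 2.00, and the interaction of 0.79 (adjusted p = 0.0456) passed in 2 of 12 fits with a library left out, at 0.63 to 1.08. Pfkfb1, a bifunctional enzyme that sets the level of fructose 2,6-bisphosphate, fell in knockout livers to 9.39 ± 1.08 CPM, against 17.1 ± 4.77 CPM fed (-0.87 ± 0.20, adjusted p = 0.0398), and rose in wild-type livers (0.92; interaction -1.79, adjusted p = 0.00045). Its call was lost without fasted library a (-0.80), fasted library c (-0.83), fed library a (-0.62) or fed library c (-0.94), and in the fit of the 6 knockout libraries (-0.86).

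Some epithelial genes rose in fasted knockout livers. Of 25 tested genes of duct, squamous and progenitor epithelium 5 rose and 0 fell, with a list median of 0.08, and in wild-type livers 3 rose and 5 fell. Krt20, an intestinal-type keratin, had 7.49, 3.27 and 11.2 CPM in fasted knockout libraries, against 0.755, 1.56 and 0.804 CPM in fed knockout libraries, a rise of 2.80 ± 0.45 (adjusted p = 0.0182). Fasted library b was the lowest fasted and fed library b the highest fed library. Fasted wild-type libraries had 0 counts of Krt20. Cldn4, a tight junction claudin, had 79.3, 32.8 and 74.0 CPM in fasted knockout libraries, against 9.06, 15.5 and 14.3 CPM in fed knockout libraries (2.26 ± 0.34, adjusted p = 0.019), and averaged 0.221 ± 0.199 CPM in fasted and 0.178 ± 0.166 CPM in fed wild-type livers.

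Krt8 and Krt18, the keratin pair of simple epithelia, for both of which processed copies elsewhere in the genome may share reads, moved together. Krt8 had 987, 859 and 1551 CPM in fasted knockout libraries, against 398, 726 and 410 CPM in fed knockout libraries, and Krt18 averaged 917 ± 275 CPM fasted and 404 ± 139 CPM fed. They rose by 1.15 ± 0.24 (adjusted p = 0.0401) and 1.18 ± 0.24 (adjusted p = 0.0378), with fed library b above the other fed libraries in each. In wild-type livers Krt8 averaged 162 ± 14 CPM fasted and 172 ± 8.20 CPM fed, and its interaction of 1.23 (adjusted p = 0.0344) passed in 3 of 12 fits with a library left out, at 0.94 to 1.57. Krt23, a keratin raised in injured hepatocytes, had 5.31, 6.26 and 4.71 CPM in fasted knockout libraries, against 1.72, 1.63 and 1.34 CPM in fed knockout libraries (1.79 ± 0.32, adjusted p = 0.0182). It differs from the others in that it also rose in wild-type livers (2.47), to 11.2 ± 3.25 CPM.

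All 5 epithelial calls held without fasted library b (1.31 to 3.15) or fed library b (1.49 to 3.21). None held without fasted library a (1.24 to 2.78), fasted library c (0.86 to 2.36), fed library a (0.99 to 2.62) or fed library c (1.01 to 2.64), and Krt23 alone held in the fit of the 6 knockout libraries. The list summed to 2990 to 4774 CPM in fasted knockout and 2183 to 2716 CPM in fed knockout livers. Duct cells express the same keratins and claudins, and their part in the result was not tested.

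Immediate early genes, among them the Fos and Jun families that form the transcription factor AP-1, respond quickly to growth factor or stress signals, and some rose as well. Of 42 tested 6 rose and 0 fell in fasted knockout livers, with 31 positive changes and a median of 0.29, against 6 rises and 7 falls in wild-type livers with a median of 0.04. Fosl1, the Fos-family subunit FRA-1, had 90.0, 60.9 and 115 CPM in fasted knockout libraries, against 22.6, 34.2 and 20.4 CPM in fed knockout libraries. The groups were well separated and the change was 1.78 ± 0.24 (adjusted p = 0.0106), while wild-type livers averaged 0.0847 ± 0.0734 CPM fasted and 0.348 ± 0.238 CPM fed.

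Dusp5, a nuclear phosphatase of ERK that ERK itself induces, had 30.8, 19.1 and 40.2 CPM in fasted knockout libraries, against 12.4, 11.3 and 12.1 CPM in fed knockout libraries (1.33 ± 0.22, adjusted p = 0.0182). Klf4, a Krüppel-like epithelial factor, had 68.4, 41.5 and 71.8 CPM in fasted knockout libraries, against 22.0, 18.6 and 29.9 CPM in fed knockout libraries (1.36 ± 0.26, adjusted p = 0.026). Fasted library b was the lowest fasted library for Fosl1, Dusp5 and Klf4. Plaur, the urokinase receptor, rose to 52.9 ± 4.90 CPM fasted, against 31.8 ± 4.53 CPM fed (0.73 ± 0.15, adjusted p = 0.0258). Ier3, a stress-induced survival gene, rose by 0.86 ± 0.18 (adjusted p = 0.0315), and Ccn1, a matricellular protein under YAP control, by 0.63 ± 0.13 (adjusted p = 0.0293).

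The interaction passed for Ccn1 (1.04, adjusted p = 0.00296) and Plaur (1.02, adjusted p = 0.0461, in 4 of 12 fits with a library left out at 0.90 to 1.40). Fosl1 passed in 5 of the 6 fits without a knockout library and missed without fasted library a (1.77). Without fasted library a 0 of the 6 genes passed (0.65 to 1.77), without fasted library c 1 passed (0.68 to 1.55), and without fed libraries a, b and c 4, 2 and 3 passed (0.79 to 1.70, 0.63 to 2.04 and 0.49 to 1.64). In the fit of the 6 knockout libraries 0 passed.

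Promoters of these genes were read in RefSeq (GRCm38.p6) from 250 bases before to 50 after each start, because AP-1 binds a short palindromic motif that can be looked for in letters. The motif TGANTCA, which reads as itself on both strands apart from the middle base, occurred in 7.81% of all 32851 promoters in the table. Among genes in the table that rose in fasted knockout livers 11 of 95 (11.6%) had it, and among those that fell 7 of 104 (6.73%), against 713 of 10591 tested genes (6.73%). Of the 18 genes in the epithelial, AP-1 and largest-rise groups, 15 were in the table and 3 held the motif, Cldn4, Sphk1 and Plaur. The cyclic AMP response element TGACGTCA occurred in 1.79% and the direct repeat bound by PPARα with RXR in 0.0396% of promoters, each searched on both strands. The response element was held by 4 of the 95 genes that rose (4.21%) and 1 of the 104 that fell (0.962%), against 3.4% of tested genes. For the direct repeat these were 1 of 95 (1.05%) and 0 of 104, against 5 of 10591 tested genes (0.0472%). The droplet gene Cidec also held the AP-1 motif, in 1 of its 2 promoters, and Hilpda, not shown, in 2 of 2. Stretches of 80 bases upstream of the start are shown for those 3 genes and for Cidec. They run 5′ to 3′ on the strand of the gene, with the AP-1 motif in capitals. They lie at chr5:134947105-134947184 (minus strand), chr11:116531757-116531836 (plus), chr7:24462384-24462463 (plus) and chr6:113434811-113434890 (minus).
Cldn4: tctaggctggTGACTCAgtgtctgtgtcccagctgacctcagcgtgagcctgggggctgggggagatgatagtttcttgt
Sphk1: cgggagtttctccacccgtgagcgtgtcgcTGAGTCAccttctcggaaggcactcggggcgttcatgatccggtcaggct
Plaur: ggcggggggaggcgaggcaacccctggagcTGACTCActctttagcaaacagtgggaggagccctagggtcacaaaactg
Cidec: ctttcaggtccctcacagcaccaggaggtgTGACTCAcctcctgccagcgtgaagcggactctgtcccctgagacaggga
The motif begins 240 bases before the start in Cldn4, 69 in Plaur and 96 in Cidec. In Sphk1 it begins 50 or 124 bases before the start, in the 2 of its 5 promoters that hold it. A second copy in Cldn4 lies nearer the start. A match of letters is a description and not a measured binding site.

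**Figure D4:**
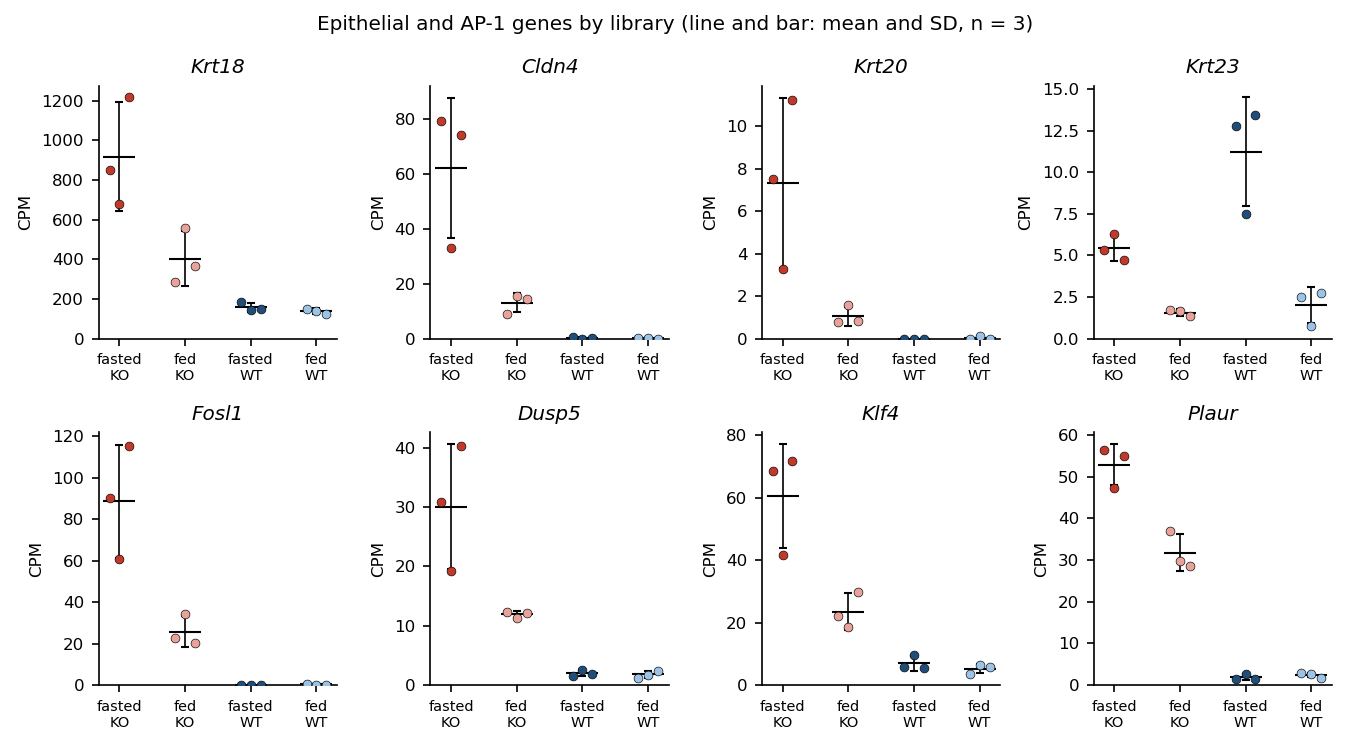
CPM of 8 epithelial and immediate early genes in each liver library (points), with group mean and SD (line and bar), in the order fasted knockout, fed knockout, fasted wild type, fed wild type. In each panel the 3 fasted knockout libraries lie above the 3 fed knockout libraries, and for 7 of the 8 genes, Krt23 excepted, both wild-type groups lie below the fed knockout libraries. The rule for the largest rises, which picks Cldn4, Krt20, Krt23 and Fosl1, admits only genes with such a separation of the knockout libraries.

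Of the other genes with the largest rises, Sphk1, the kinase that makes sphingosine 1-phosphate, had 19.0, 6.74 and 34.2 CPM in fasted knockout libraries, against 2.68, 4.16 and 3.42 CPM in fed knockout libraries (2.54 ± 0.49, adjusted p = 0.0364). The fasted libraries were widely spread, with library c far above library b. All lay above the fed ones, as the rule that picks the largest rises requires. Runx1, a transcription factor of blood and injured epithelium, had 52.0, 24.8 and 75.5 CPM in fasted knockout libraries, against 11.5, 14.6 and 17.2 CPM in fed knockout libraries (1.81 ± 0.33, adjusted p = 0.0286). It averaged 1.40 ± 0.393 CPM fasted and 3.51 ± 0.644 CPM fed in wild-type livers, and the interaction was 3.14 (adjusted p = 0.00984).

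Hmga1, an architectural chromatin protein of growing cells that has processed copies, had 200, 114 and 294 CPM in fasted knockout libraries, against 58.9, 70.1 and 58.7 CPM in fed knockout libraries (1.69 ± 0.26, adjusted p = 0.019). It also rose in wild-type livers (1.10), to 40.1 ± 2.95 CPM fasted, against 18.8 ± 2.38 CPM fed, a call lost there without fasted or fed wild-type library b. The homeobox gene Irx3 had 10.3, 6.26 and 11.5 CPM in fasted knockout libraries, against 2.81, 3.06 and 3.22 CPM in fed knockout libraries (1.62 ± 0.24, adjusted p = 0.0106). Igsf23, an immunoglobulin-superfamily gene, rose by 1.53 ± 0.29 (adjusted p = 0.02) and averaged 1.08 ± 0.502 CPM fasted and 1.61 ± 0.333 CPM fed in wild-type livers. Etv4, an ETS factor downstream of ERK, rose by 1.52 ± 0.35 (adjusted p = 0.0396). Ccl7, a chemokine that attracts monocytes, had 13.0, 11.9 and 20.7 CPM in fasted knockout libraries, against 2.47, 6.57 and 5.29 CPM in fed knockout libraries (1.67 ± 0.31, adjusted p = 0.0248). Of 27 chemokine and cytokine genes it was the 1 that rose in knockout livers, and 0 fell (median 0.06). Ccl7 had 0 counts in the fasted wild-type libraries and 0.455 ± 0.160 CPM in the fed ones, so no interaction is given.

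These 7 rises all passed without fasted library b (1.71 to 2.95). Without fasted library a 0 passed (1.18 to 2.57). Hmga1 alone passed without fasted library c (1.33 to 1.91), and Irx3 alone passed without fed library a (1.26 to 2.39), without fed library c (1.55 to 2.54) and in the fit of the 6 knockout libraries. Sphk1 and Runx1 were lost without fed library b.

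The largest falls, beside Cps1 and Aldh1b1, mixed hepatocyte and other genes. Nnmt, nicotinamide N-methyltransferase, which consumes S-adenosylmethionine, had 11.3, 23.3 and 17.7 CPM in fasted knockout libraries, against 48.5, 42.6 and 52.8 CPM in fed knockout libraries. The fall was 1.46 ± 0.23 (adjusted p = 0.0182), and in wild-type livers Nnmt averaged 144 ± 37.7 CPM fasted and 158 ± 11.3 CPM fed (interaction -1.33, adjusted p = 0.0151). Slc10a5, a liver member of the bile acid transporter family, had 1.89, 2.79 and 2.20 CPM in fasted knockout libraries, against 6.25, 5.98 and 5.02 CPM in fed knockout libraries (-1.32 ± 0.20, adjusted p = 0.0106; interaction -1.25, adjusted p = 0.00395).

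Peg3, an imprinted zinc finger gene, had 4.58, 3.47 and 3.12 CPM in fasted knockout libraries, against 11.9, 4.62 and 11.3 CPM in fed knockout libraries, where library b nearly met the fasted values. It fell in knockout livers (-1.31 ± 0.28, adjusted p = 0.0323) and rose in wild-type livers (1.60; interaction -2.91, adjusted p = 0.000279). Bmper, a secreted regulator of BMP signals, fell by 1.26 ± 0.27 (adjusted p = 0.0324) and further in wild-type livers (-3.42; interaction 2.16, adjusted p = 0.00926). Il1f9, an interleukin-36 cytokine, had 2.33, 3.00 and 1.98 CPM in fasted knockout libraries, against 4.67, 6.83 and 8.11 CPM in fed knockout libraries (-1.42 ± 0.29, adjusted p = 0.025).

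Among the rest, Epdr1, a lysosomal ependymin relative, fell by 1.39 ± 0.26, Gipc2, a PDZ-domain adaptor, by 1.33 ± 0.25, Pole, the leading-strand DNA polymerase, by 1.23 ± 0.23, and Klhdc8a and Zfp970, whose roles are little described, by 1.21 ± 0.24 each. Their adjusted p-values were 0.019 to 0.0237. All 10 genes of this group passed without fasted library b (-1.73 to -1.22) or fed library b (-1.64 to -1.10). Nnmt alone passed without fasted library a (-1.59 to -0.99), 0 passed without fasted library c (-1.47 to -1.16), 3 passed without fed library a (-1.61 to -1.09) and 2 without fed library c (-1.41 to -1.11). None passed in the fit of the 6 knockout libraries.

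Macrophage markers fell together in fasted wild-type livers, and few were called in knockout livers. Of 24 macrophage and Kupffer cell markers 1 rose and 2 fell in fasted knockout livers (median -0.31), whereas 22 fell and 0 rose in wild-type livers (median -1.56), and 19 had a positive interaction. Their summed level was 3802 to 4287 CPM in fasted knockout and 4303 to 5057 CPM in fed knockout livers, against 713 to 981 CPM in fasted wild-type and 2124 to 2692 CPM in fed wild-type livers. The riser was Cd68, a lysosomal glycoprotein of macrophages, with 735, 584 and 680 CPM in fasted knockout libraries, against 388, 420 and 495 CPM in fed knockout libraries (0.62 ± 0.14, adjusted p = 0.0396). In wild-type livers it fell (-1.56), and the interaction was 2.18 (adjusted p = 9.41e-06).

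Ccr2, the chemokine receptor of recruited monocytes, had 6.91, 7.56 and 5.24 CPM in fasted knockout libraries, against 9.13, 16.0 and 20.4 CPM in fed knockout libraries (-1.21 ± 0.26, adjusted p = 0.0324). Ptprc, the pan-leukocyte antigen CD45, had 19.5, 30.9 and 18.5 CPM fasted against 33.9, 43.0 and 39.6 CPM fed (-0.76 ± 0.18, adjusted p = 0.0422). Both fell in wild-type livers too, by 1.69 each, and the interaction of Ptprc was 0.94 (adjusted p = 0.0317, in 7 of 12 fits with a library left out at 0.66 to 1.10). Cd68 thus went against Ccr2 and Ptprc within the knockout livers. Trem2, a lipid receptor of scar- and fat-associated macrophages, stood at 13.1 ± 2.47 CPM fasted and 20.7 ± 2.02 CPM fed and missed the threshold (adjusted p = 0.0529).

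Neutrophil markers (13 tested), lymphocyte and natural killer cell markers (16), endothelial markers (17) and stellate and fibroblast markers (17) gave 0 calls in knockout livers, with medians of -0.62, -0.01, -0.10 and -0.22. Over all features 1.52% were called in knockout livers, so 0 calls in lists of this size lie near that share. In wild-type livers, where 13.8% of all features fell, 8, 5, 8 and 7 of these markers fell, in the same order. Their wild-type medians were -2.86, -1.24, -0.31 and -0.58, and 1 endothelial marker rose. The interaction passed, always as a positive one, for 4, 3, 2 and 5 of them, against 6.33% of all features. The 2 of 17 endothelial markers lie near that share, and the median interaction over the endothelial markers was 0.06. The neutrophil markers summed to 36.9 to 59.2 CPM in fasted knockout and 60.7 to 77.2 CPM in fed knockout livers, the lymphocyte markers to 43.4 to 61.3 and 47.7 to 56.2 CPM, the endothelial markers to 1100 to 1239 and 1120 to 1298 CPM, and the stellate markers to 866 to 921 and 933 to 1243 CPM. For the neutrophil, macrophage and stellate sums every fasted knockout library was below every fed one. Col3a1, a fibrillar collagen, averaged 82.8 ± 11.7 CPM fasted and 133 ± 40.3 CPM fed in knockout livers (adjusted p = 0.055), while it fell by 2.58 in wild-type livers (interaction 1.90, adjusted p = 0.000211).

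Interferon-stimulated genes gave 0 calls among 45 in knockout livers (median 0.17), against 31 falls in wild-type livers (median -1.12) and 21 positive interactions. Over all features 1.52% were called in knockout livers and 13.8% fell in wild-type livers. Usp18, which restrains interferon receptor signalling, stood at 75.0 ± 6.93 CPM fasted and 48.8 ± 11.5 CPM fed in knockout livers (adjusted p = 0.122), and fell by 1.25 in wild-type livers (interaction 1.87, adjusted p = 0.00197). Of the 3 calls among leukocyte genes, Cd68, Ccr2 and Ptprc, all held without fasted library b (-1.32 to 0.70), and 0 held without fasted library a (-1.24 to 0.54), fasted library c (-1.06 to 0.61), fed library b (-1.17 to 0.59) or fed library c (-0.93 to 0.72), or in the fit of the 6 knockout libraries. Ccr2 alone held without fed library a (-1.47).

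Nearly all cell cycle genes had lower values in fasted knockout livers, and 5 passed the test. Of 50 members tested 0 rose and 5 fell, 1 change was positive, and the median of -0.87 was the lowest of the 32 lists, against 1 rise, 23 falls and a median of -1.36 in wild-type livers. In 31 of the 50 the fasted and fed knockout libraries did not overlap, against 22% of all features. Rrm1, of ribonucleotide reductase, had 9.75, 9.26 and 10.7 CPM in fasted knockout libraries, against 16.1, 16.6 and 19.0 CPM in fed knockout libraries (-0.80 ± 0.15, adjusted p = 0.019). Birc5, the mitotic protein survivin, had 1.75, 1.50 and 1.67 CPM fasted against 3.57, 5.07 and 5.83 CPM fed (-1.55 ± 0.29, adjusted p = 0.0198). Prc1, which bundles spindle microtubules, fell by 1.51 ± 0.31, thymidine kinase Tk1 by 0.88 ± 0.19 and the mitotic transcription factor Foxm1 by 0.95 ± 0.23, with adjusted p-values of 0.0258 for Prc1, 0.032 for Tk1 and 0.0462 for Foxm1.

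The summed level of the cell cycle list was 371 to 430 CPM in fasted knockout and 481 to 611 CPM in fed knockout livers, with no overlap. Leukocytes as well as hepatocytes can divide, and the macrophage and neutrophil sums given above were also lower in each fasted knockout library, a part in the result that was not tested. Nucleolar and ribosome biogenesis genes gave 1 rise among 40, with 34 positive changes and a median of 0.23, against 4 falls and a median of -0.21 in wild-type livers. The riser was Npm1, nucleophosmin, which has many processed copies, with 161, 179 and 208 CPM in fasted knockout libraries, against 102, 144 and 115 CPM in fed knockout libraries (0.60 ± 0.14, adjusted p = 0.0396). For these 6 genes, 5 held without fasted library b, where Foxm1 was lost, and 0 held without fasted library a (-1.60 to 0.68), fasted library c (-1.60 to 0.50) or fed library c (-1.41 to 0.57). Birc5 and Tk1 held without fed library a (-1.73 to 0.49), 3 held without fed library b (-1.52 to 0.75), and 0 held in the fit of the 6 knockout libraries.

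Few genes of the stress and autophagy lists passed in knockout livers, as few of all features did (1.52%). In knockout livers 0 of 26 genes of the unfolded protein response passed (median -0.06), against 23 falls in wild-type livers (median -0.80) and 15 positive interactions. Hspa5, the endoplasmic reticulum chaperone BiP, averaged 251 ± 35.8 CPM fasted and 247 ± 28.8 CPM fed in knockout livers (adjusted p = 0.956), against 428 ± 59.8 CPM fasted and 948 ± 160 CPM fed in wild-type livers (interaction 1.17, adjusted p = 0.00153). Of 36 targets of ATF4, the factor of the amino acid stress response, 1 rose and 0 fell, with 27 positive changes and a median of 0.31, the highest knockout median of the 32 lists. In wild-type livers 8 rose and 9 fell (median -0.29). The riser in knockout livers was Ppp1r15a, the phosphatase subunit GADD34, with 49.8, 54.7 and 59.4 CPM in fasted knockout libraries, against 37.5, 39.2 and 34.3 CPM in fed knockout libraries (0.56 ± 0.11, adjusted p = 0.025). It rose as well in wild-type livers (0.67). Atf4 stood at 152, 110 and 186 CPM in fasted knockout libraries, against 79.3, 107 and 109 CPM in fed knockout libraries, barely separate, and missed the threshold (adjusted p = 0.0615), and Eif4ebp1, an ATF4-induced brake on translation, missed as well (adjusted p = 0.0516).

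Of 60 autophagy and lysosome genes 0 passed in knockout livers (median -0.03), against 18 rises and 3 falls in wild-type livers. Over all features 1.52% passed in knockout livers and 26.3% in wild-type livers. Sqstm1, the autophagy receptor p62, had 962, 960 and 1114 CPM in fasted knockout libraries, against 789, 870 and 752 CPM in fed knockout libraries (adjusted p = 0.134). It rose by 1.12 in wild-type livers, where it averaged 609 ± 31.3 CPM fasted and 280 ± 26.0 CPM fed (interaction -0.79, adjusted p = 0.00394). Of 14 genes of the Vps34 complex and its effectors 1 rose, Eea1, an endosomal tether that binds phosphatidylinositol 3-phosphate, with 50.9, 42.6 and 62.5 CPM in fasted knockout libraries, against 29.1, 37.6 and 29.7 CPM in fed knockout libraries (0.69 ± 0.14, adjusted p = 0.025; interaction 0.69, adjusted p = 0.0355, in 4 of 12 fits with a library left out at 0.54 to 0.82). In wild-type livers Eea1 averaged 28.0 ± 1.82 CPM fasted and 27.9 ± 1.48 CPM fed. NRF2 targets (36), p53 targets (29), acute phase proteins (28), clock genes (20), the growth hormone axis (25) and nuclear genes of oxidative phosphorylation (74) gave 0 calls, with medians of 0.08, -0.10, -0.16, -0.03, 0.00 and 0.00. In wild-type livers 40 of those 74 respiratory genes rose.

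The clock repressor Nr1d1 had 48.5, 41.6 and 60.5 CPM in fasted knockout libraries, against 23.0, 25.7 and 21.4 CPM in fed knockout libraries, and did not pass despite that separation (adjusted p = 0.316). Its wild-type libraries averaged 68.9 ± 26.4 CPM fasted and 27.1 ± 17.1 CPM fed. Bhlhe41, a clock-linked repressor, missed as well (7.26 ± 3.43 CPM fasted and 1.95 ± 0.640 CPM fed in knockout livers, adjusted p = 0.0526; interaction 2.71, adjusted p = 0.0153). Hmox1, heme oxygenase, had means of 253 ± 53.7 CPM fasted and 183 ± 16.3 CPM fed in knockout livers (adjusted p = 0.114) and fell by 1.19 in wild-type livers (interaction 1.66, adjusted p = 0.000135). The insulin receptor gene Insr averaged 67.6 ± 2.42 CPM fasted and 85.4 ± 7.89 CPM fed in knockout livers (adjusted p = 0.106), and rose by 0.73 in wild-type livers (interaction -1.06, adjusted p = 0.000229). Of 23 bile acid genes 1 fell, Baat, which conjugates bile acids, to 21.7 ± 6.04 CPM fasted, against 34.9 ± 2.80 CPM fed (-0.68 ± 0.16, adjusted p = 0.0413). Ppp1r15a, Eea1 and Baat all held without fasted library b (-0.88 to 0.82). None held without fasted library a (-0.48 to 0.71), fasted library c (-0.71 to 0.54), fed library a (-0.62 to 0.63) or fed library c (-0.74 to 0.64), or in the fit of the 6 knockout libraries, and Baat was lost without fed library b (-0.68).

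**Figure D5:**
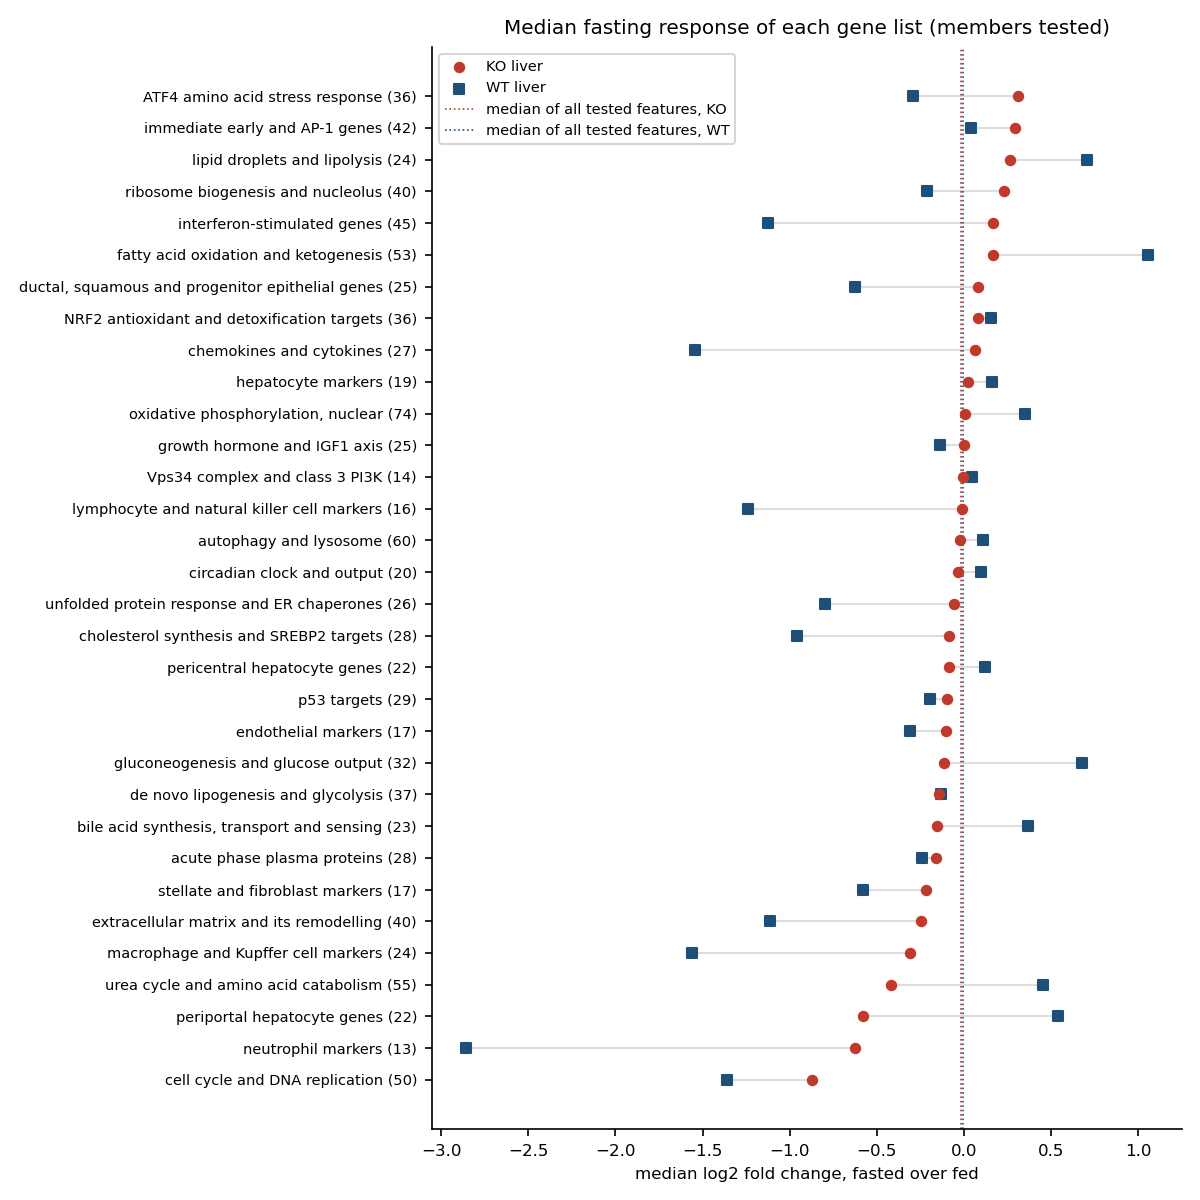
Median log2 fold change on fasting of each of the 32 gene lists in knockout livers (red circles) and wild-type livers (blue squares), sorted by the knockout value, with the number of members tested in brackets and the medians of all tested features as dotted lines. Knockout medians run from -0.87 for cell cycle genes at the bottom to 0.31 for ATF4 targets at the top, a narrower span than that of the wild-type medians.

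Of the 362 features called in knockout livers, 149 (41.2%) also had an interaction past 0.05, against 12% of all features. This is a description, since the interaction includes the knockout change by which they were chosen. Calls in opposite directions were not more frequent than the shares of all features. Of the 199 rises 16 (8.04%) fell in wild-type livers, as did 13.8% of all features. Of the 163 falls 21 (12.9%) rose there, as did 12.5% of all features. The genes below were picked from the 149 by the size of their interaction. Abcb1a, a multidrug efflux transporter, had 38.3, 29.6 and 50.5 CPM in fasted knockout libraries, against 12.8, 22.4 and 13.3 CPM in fed knockout libraries (1.29 ± 0.25, adjusted p = 0.0293), and fell by 1.49 in wild-type livers (interaction 2.77, adjusted p = 0.000795). Slpi, a secreted protease inhibitor of epithelia and leukocytes, had 144, 140 and 156 CPM in fasted knockout libraries, against 73.2, 101 and 118 CPM in fed knockout libraries (0.59 ± 0.14, adjusted p = 0.044), and fell by 1.67 in wild-type livers (interaction 2.27, adjusted p = 9.34e-05). Both rises were therefore the reverse of the wild-type response.

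Rin1, an effector of Ras, rose to 7.99 ± 3.53 CPM fasted, against 2.90 ± 0.308 CPM fed (1.46 ± 0.32, adjusted p = 0.0348), with an interaction of 2.27 (adjusted p = 0.0479) that passed in 2 of 12 fits with a library left out, at 1.83 to 2.70. Mcc, a gene mutated in colorectal cancers, had 4.87, 6.95 and 3.65 CPM in fasted knockout libraries, against 13.7, 9.69 and 11.0 CPM in fed knockout libraries (-1.14 ± 0.23, adjusted p = 0.0291), and rose by 1.38 in wild-type livers (interaction -2.52, adjusted p = 0.000135). Acsm3, a mitochondrial medium-chain acyl-CoA synthetase, fell to 9.01 ± 1.78 CPM fasted, against 14.2 ± 2.37 CPM fed in knockout livers (-0.66 ± 0.16, adjusted p = 0.0462), and rose by 1.03 in wild-type livers (interaction -1.68, adjusted p = 9.39e-05). F13a1 and Gpx2, which the rule on interactions also names, had 0 counts in fasted wild-type libraries and are given no fold. Of the 13 genes of this group with a value, Runx1, Abcb1a, Rin1, Slpi, Cd68, Cidec, Peg3, Mcc, Aldh1b1, Pfkfb1, Pdk4, Cps1 and Acsm3, the knockout call held for all without fasted library b and for 0 without fasted library a (-1.53 to 1.80) or c (-1.58 to 1.80). It held for Cps1 without fed library a (-1.55 to 1.67), for 7 without fed library b (-1.86 to 1.82), for Slpi and Pdk4 without fed library c (-1.50 to 2.23), and for Cidec and Aldh1b1 in the fit of the 6 knockout libraries.

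Of the 362 features called in knockout livers, 4 stayed past 0.05 in every fit with a knockout library left out. Each of the others failed to pass in 1 or more of these fits. The 4 were picked after these fits were seen. Beside Scd2 they were Pid1, Abca1 and Pvr, each with the same adjusted p of 0.00398, and these are named only because they stayed. Pid1, an adaptor that blunts insulin signalling, had 36.2, 43.1 and 39.7 CPM in fasted knockout libraries, against 74.1, 69.2 and 71.1 CPM in fed knockout libraries. It fell by 0.85 ± 0.10, and by 0.91 to 0.79 with each library left out, while in wild-type livers it averaged 96.7 ± 2.93 CPM fasted and 109 ± 6.48 CPM fed (interaction -0.68, adjusted p = 0.00462).

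Abca1, which exports cholesterol to nascent HDL, had 91.4, 98.8 and 86.9 CPM in fasted knockout libraries, against 178, 153 and 157 CPM in fed knockout libraries. It fell by 0.81 ± 0.11 in knockout livers and by 0.84 in wild-type livers, where it averaged 112 ± 10.3 CPM fasted and 200 ± 5.08 CPM fed, and no difference between the responses was detected (interaction adjusted p = 0.944). Pvr, the poliovirus receptor CD155, a ligand of lymphocyte receptors, had 96.9, 89.0 and 120 CPM in fasted knockout libraries, against 49.4, 55.0 and 51.0 CPM in fed knockout libraries. It rose by 0.98 ± 0.12, and in wild-type livers it averaged 11.8 ± 1.51 CPM fasted and 10.7 ± 0.615 CPM fed (interaction 0.83, adjusted p = 0.00871). In each of the 4 genes the fasted and fed knockout libraries did not overlap.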

How the data were processed

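Whole-liver poly(A) RNA was sequenced on paired ends with a kit that marks strand, per the labels' protocols. The deposited table holds raw counts for 48526 Ensembl genes and 87774 NONCODE transcripts. HISAT2, Subread, DESeq2, edgeR and the build mm10 are named in the submitters' processing notes; the strand setting of counting is not given in the sources used here. NONCODE features can overlap Ensembl genes, and copies of a gene can share reads.

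Counts of the 12 liver libraries were fitted with edgeR 4.0.16 in R 4.3.3, after filterByExpr (minimum count 10, minimum total 15) and TMM scaling, with 1 mean for each of the 4 groups and a robust quasi-likelihood test. Contrasts were fasted over fed in knockout and in wild-type livers, and their difference. P-values were adjusted by Benjamini-Hochberg over the 23875 features, and SE is the log2 fold change over the square root of F. The letters a, b and c name a group's libraries in column order, since columns show a group but no replicate number. Replicates differed beyond counting noise (chi-square per degree of freedom 6.59 to 14.6), so each counts as 1 sample. In simulated data for the knockout contrast on 23323 features, edgeR recovered 90 of 100 changes of log2 1, with 15 false calls. Of changes of log2 2 it recovered 99 of 100. The changes were placed only in features averaging at least 5 CPM. Counts were drawn independently, with no shift shared by the features of a library, so these numbers do not give the recovery for scarcer features or under such a shift. Recovery in the real libraries was not tested. Their calls numbered 7 without fasted knockout library a or c and 1330 without b, and an uncalled gene may still have changed. Alternatives were RLE factors, library sizes alone, no filter, DESeq2 1.42.0, Ensembl features alone, the compared libraries alone, and each library left out. DESeq2's missing adjusted p-values stayed missing.

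Symbols came from the supplied name table, for 48058 of 48526 Ensembl identifiers. Members and lists were chosen with earlier results of these data known. Named genes are a fixed set of fasting genes, the 4 list members with the smallest adjusted p, the 12 largest rises and falls among calls with separate libraries and at least 5 CPM, and the 8 largest interactions each way. Tat, Cbs, Kynu, Krt8, Ier3, Ccn1, Foxm1, Pid1, Abca1 and Pvr were added after their values were seen. Some results are not reported here. Promoters are RefSeq's, on GRCm38.p6.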

Additional observations from a re-analysis of the deposited data

Results flagged for a closer look

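Differences between the fasting responses of the 2 genotypes, by the interaction test in edgeR at an adjusted p of 0.05, were called for 1512 features with the higher and 1361 with the lower response in knockout livers, and for 2244 and 1014 with library sizes alone. They include 50 of the named genes, 23 positive and 27 negative (knockout minus wild type). Of the fasting and metabolic genes, the difference was -1.75 for Pdk4, -1.64 for Cpt1a, -2.22 for Angptl4, -3.34 for Cyp4a14, -1.68 for Acsm3, -0.91 for Plin2, -3.31 for Cidec, -3.46 for Ppargc1a, -1.56 for Klf15, -2.05 for Pck1, -3.03 for Got1 and -1.45 for Slc25a47 on the log2 scale, all with the lower response in knockout livers. Of amino acid, periportal, bile acid, insulin-related and other genes it was -1.74 for Cps1, -1.65 for Gldc, -1.20 for Slc25a15, -1.54 for Tat, -1.18 for Kynu, -2.29 for Aldh1b1, -1.33 for Nnmt, -1.25 for Slc10a5, -0.89 for Baat, -1.06 for Insr, -0.68 for Pid1, -0.79 for Sqstm1, -2.91 for Peg3, -2.52 for Mcc and -1.79 for Pfkfb1, again lower in knockout livers. Of genes of lipid synthesis and the endoplasmic reticulum it was 3.21 for Srebf1, 1.91 for Fasn, 0.79 for Scd2 and 1.17 for Hspa5. Of epithelial, immediate early and other stress genes it was 1.23 for Krt8, 1.02 for Plaur, 1.04 for Ccn1, 2.09 for Igsf23, 2.27 for Rin1, 3.14 for Runx1, 2.27 for Slpi, 0.83 for Pvr, 2.77 for Abcb1a, 0.69 for Eea1, 1.66 for Hmox1 and 2.71 for Bhlhe41. Of genes of leukocytes, sinusoidal cells, matrix and the interferon response it was 2.18 for Cd68, 0.94 for Ptprc, 1.03 for Csf3r, 1.11 for Lyve1, 1.90 for Col3a1, 2.16 for Bmper and 1.87 for Usp18. A positive difference can come from a rise in knockout livers or from a fall in wild-type livers. Csf3r, a neutrophil receptor, averaged 14.5 ± 3.73 CPM fasted and 22.4 ± 2.38 CPM fed in knockout livers (adjusted p = 0.0989), and fell by 1.65 in wild-type livers. Lyve1, a sinusoidal endothelial receptor, had 167, 149 and 187 CPM in fasted knockout libraries, against 116, 127 and 131 CPM in fed knockout libraries (adjusted p = 0.126), and fell by 0.69 in wild-type livers. All 50 kept their sign in the 12 fits with a library left out, and 39 stayed past 0.05 in each. The other 11 passed in fewer of the 12 fits: Cyp4a14, Rin1 and Scd2 in 2, Krt8 in 3, Csf3r, Eea1, Pdk4 and Plaur in 4, and Igsf23, Ptprc and Slc25a15 in 7.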

How the results depend on the processing

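The counts of calls were the least stable results. In knockout livers, against 199 rises and 163 falls, there were 829 and 627 without a filter on low counts, 452 and 480 with DESeq2, 26 and 7 with the 6 knockout libraries alone, 302 falls with library sizes alone, and 268 falls with Ensembl features alone; RLE size factors gave 183 and 165. With 1 of the 12 libraries left out, rises ranged over 2 to 599 and falls over 3 to 731. In wild-type livers library sizes alone gave 1785 rises and 5202 falls, and leaving out a library gave 2207 to 3055 and 2474 to 3409. The interaction gave 2481 higher and 1260 lower without a filter, 2244 and 1014 with library sizes alone, and 1085 to 1484 higher and 1008 to 1498 lower with a library left out. Library sizes alone moved the median of all features to -0.07 in knockout livers, -0.19 in wild-type livers and 0.15 for the interaction.

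Of the named genes, the call in knockout livers was lost for 63 without fasted knockout library a, 62 without c, 2 without b, 50, 21 and 53 without fed knockout library a, b and c, and 58 with the 6 knockout libraries alone; leaving out a wild-type library lost 9 to 16. DESeq2 lost Cidea and Prc1, library sizes alone lost Sdsl, Krt8, Npm1 and Slpi, and the fit without a filter lost Cps1. The sign of 2 uncalled changes turned. Ppara ranged over -0.047 to 0.32 with a library left out. Hspa5 ranged over -0.087 to 0.12 so, and was -0.033 with library sizes alone. The cause was not tested. No paired analysis was possible because the count columns carry no replicate numbers. Low genes such as Cidea and Birc5 rest on few counts, which limits their precision.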
